A study of Rattus norvegicus with 4 samples.

Results

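The keratin gene family was described in 4 rat samples, 2 from junctional and 2 from peri-implant epithelium. Its members were taken as all genes whose symbol on the array begins with Krt followed by a digit, which gave 25 genes, read by 27 probe sets, of 14217 genes in all. Of the 25 genes, 14 encode type I and 11 encode type II keratins, and RefSeq lists 55 protein-coding genes of this name pattern in the rat assembly GRCr8. Genes without a probe set of their own, among them Krt2, Krt6a, Krt6b, Krt9 and Krt16, were therefore not analysed here.

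Both groups came from male Sprague-Dawley rats that were 4 weeks old at surgery, and the 20 rats were killed 4 weeks later. Junctional epithelium is the collar of gingiva sealed to a tooth, and peri-implant epithelium is the tissue in its place around a titanium alloy implant set at an extracted upper first molar. All 4 samples carry the same treatment label, tooth extraction with implant placement. Epithelium was cut from frozen sections by laser microdissection and its RNA was amplified before hybridization. The number of animals behind each sample and the site of the junctional samples are not stated, so p-values measure only the spread between these samples, which may be technical.

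Keratins are the intermediate filament proteins of epithelial cells. An acidic type I and a basic or neutral type II keratin pair as heterodimers, and the pairs follow the state of the cell: Krt5 with Krt14 in the basal layer, Krt1 with Krt10 above it in keratinizing epithelium, Krt4 with Krt13 in lining mucosa, Krt6 with Krt16 and Krt17 in wounded or rapidly renewing epithelium, and Krt8, Krt18 and Krt19 in simple epithelia. Junctional epithelium is known as a non-keratinizing epithelium that carries basal-type and simple-type keratins, Krt19 among them. The type II genes and Krt18 lie together on rat chromosome 7 and the other type I genes on chromosome 10.

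The largest changes were in 4 genes. Krt10 and Krt78 fell in peri-implant epithelium, and Krt17 and Krt24 rose. Smaller changes were called for Krt1 and Krt7, which fell, and for Krt4 and Krt15, which rose. The basal pair Krt5 and Krt14, the mucosal Krt13, the wound keratin Krt6c and the simple keratin Krt19 did not pass the test. In all, 4 of 25 keratin genes rose and 4 fell with limma's fit with an intensity trend, at an adjusted p below 0.05 over all 14217 genes. In the same fit 12.7% of all genes were called, 7.39% as higher and 5.34% as lower. The 19 keratin genes above background in a group held all 8 calls, and 18.2% of all genes of that kind were called. Signals did not overlap between the groups for 18 of 25 keratin genes, 11 of them higher and 7 lower in peri-implant epithelium. Among all genes 56.3% did not overlap, 31.2% higher and 25.2% lower. All 18 were among the 19 above background, where the share over all genes was 65.3%.

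Signals are on a log2 scale, and a difference of 1 is a doubling. The background level used here is 6.42, the brightest value that any of 27 bacterial controls reached on an array. A gene counted as above background where both arrays of at least 1 group exceeded it, which held for 11 type I and 8 type II genes. The test was computed in 2 versions, because the spread between replicates depended on the level, with a median SD of 1.07 for genes up to background and 0.0726 for genes above 12. With limma's default fit, which takes no account of this, 0 of 25 keratin genes and 0% of all genes passed (smallest adjusted p = 0.0898), while 7 of 25 keratin genes and 2861 of 14217 genes had an unadjusted p below 0.05. With the default fit on the 9779 genes above background in a group, Krt10, Krt17, Krt24 and Krt78 passed (adjusted p = 0.00807, 0.0112, 0.0208 and 0.0127). Of those genes 11.1% were called. Krt24 met this filter only through the peri-implant arrays, where it was high, so its pass there is no separate support. With signals below background raised to it in the default fit, Krt10 and Krt17 passed (adjusted p = 0.0302 and 0.0389). Krt24 and Krt78 did not (adjusted p = 0.0761 and 0.0635), and 2.47% of all genes were called. The words rose and fell are used below for the fit with an intensity trend. Where 1 array was left out, its group held 1 array, whose spread was assumed to be like that of the other group, so a call lost in these fits does not show a smaller difference.

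The arrays were of like quality. Between 66.1% and 68.9% of genes exceeded background on each array. The mean of 18 hybridization controls, which are added in equal amount, was 14.03 on the first peri-implant array, while the other arrays gave 13.70 to 13.76. Of the markers listed for stratified epithelium, 7 of 7 were above background. Their summed signal was 17.52 and 17.56 in junctional epithelium, against 17.83 and 17.59 in peri-implant epithelium on the log2 scale. Krt5 and Krt14 are in this list and have its highest signals, so the sum is not separate from the keratin values. Of the 7 markers listed for junctional epithelium, 3 were measured, and Ambn and Amelx lay below background on all 4 arrays, which left Krt19. The leukocyte list had a summed signal of 12.54 and 12.58 in junctional epithelium, against 13.66 and 13.67 in peri-implant epithelium. Of its 7 members, 6 rose, beside 7.39% of all genes called higher. The part of leukocytes in the keratin differences was not tested. In these bulk samples, fewer cells of a type and less RNA per cell cannot be told apart.

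**Figure D1:**
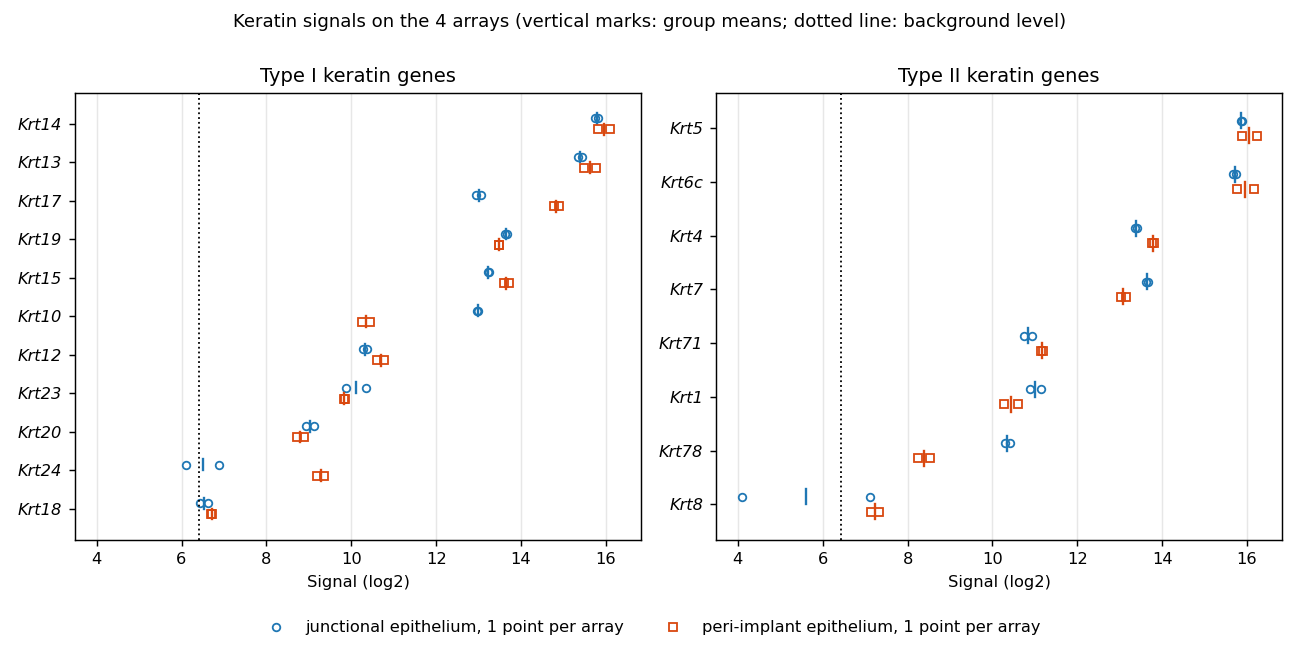
Log2 signal (horizontal axis) of the 19 keratin genes above background in a group, with type I genes on the left and type II genes on the right. Each symbol is 1 array, vertical marks are group means (n = 2) and the dotted line is the background level of 6.42; the groups stand apart for Krt10, Krt17, Krt24 and Krt78, and Krt8 has 1 junctional array below background. Positions of different genes on the axis cannot be ranked, since each gene has its own probe set.

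Krt10, the type I keratin of suprabasal keratinizing cells, had the largest fall of the family. Its signal (probe set 1373254_at) was 12.97 and 12.98 on the junctional arrays and 10.26 and 10.43 on the peri-implant arrays. The groups were far apart and the arrays of each lay close together. The group means were 12.98 ± 0.01 and 10.35 ± 0.12 (SD, n = 2 each, as below), a 6.18-fold difference (log2 difference -2.63, SE 0.09, adjusted p = 1.67e-06 with the intensity trend, 0.0898 in the default fit). Over 12 alternative settings the difference ran from -2.76 to -2.54, and the call was kept in all 12.

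Krt1, the type II partner of Krt10, fell much less. Its signal was 11.14 and 10.87 in junctional epithelium, against 10.26 and 10.61 in peri-implant epithelium, without overlap. The difference was -0.57 (SE 0.14, 1.49-fold, adjusted p = 0.0336 with the intensity trend, 0.282 in the default fit). The call was lost when any 1 of the 4 arrays was left out, with adjusted p from 0.0704 to 0.261 and differences from -0.75 to -0.40.

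The fall of Krt10 and Krt1 came with that of other markers of keratinizing epithelium. Of 7 markers listed, 5 were measured (Krt1, Krt10, Loricrin, Kprp and Krtdap). All were above background and 5 of 5 fell, beside 5.34% of all genes called lower. Krt1 and Krt10 are themselves in this count and in the summed signal, so only Loricrin, Kprp and Krtdap are other genes. The summed signal of the 5 was 16.32 and 16.26 in junctional epithelium, against 15.44 and 15.52 in peri-implant epithelium on the log2 scale. The amount of keratinizing tissue in each sample was not tested: the amount captured and a change within the epithelium cannot be told apart.

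Krt78, a type II keratin found in differentiating cells of stratified epithelia, also fell. Its signal was 10.29 and 10.41 in junctional epithelium, against 8.53 and 8.26 in peri-implant epithelium, with no overlap. The means were 10.35 ± 0.08 and 8.39 ± 0.19, a 3.88-fold difference (log2 difference -1.96, SE 0.16, adjusted p = 0.000197 with the intensity trend, 0.0994 in the default fit). The difference ran from -2.09 to -1.82 over 12 alternatives, and the call was kept in all 12.

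Krt17, a type I keratin of hair follicles that epidermis switches on after wounding and in inflammation, rose. Its signal was 12.95 and 13.05 in junctional epithelium, against 14.89 and 14.77 in peri-implant epithelium. Both peri-implant arrays lay well above both junctional arrays. The means were 13.00 ± 0.07 and 14.83 ± 0.09, a 3.55-fold difference (log2 difference 1.83, SE 0.08, adjusted p = 3.76e-06 with the intensity trend, 0.0927 in the default fit), and the call was kept in 12 of 12 alternatives with differences from 1.69 to 1.89.

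Krt6c belongs to the Krt6 group, the type II keratins made together with Krt16 and Krt17 in wounds, and it was read by 3 probe sets. The brightest (1371757_s_at) gave 15.68 and 15.74 in junctional epithelium, against 16.15 and 15.75 in peri-implant epithelium, a difference of 0.25 that did not pass (SE 0.11, adjusted p = 0.191 with the intensity trend, 0.549 in the default fit). The second (1371756_at) gave a difference of 0.37. The dimmest (1373349_at) gave 14.45 and 14.34 against 15.25 and 15.12, a difference of 0.79. The 3 probe sets therefore shared a direction, and the difference was smaller the brighter the probe set. With the intensity trend, the mean of the 3 passed (difference 0.47, adjusted p = 0.0140, within a range of 0.0140 to 0.756 over 12 alternatives). The genes of the Krt6 group are near-identical, so which of them each probe set reads is uncertain.

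Krt24, a type I keratin with a less studied role in differentiating keratinocytes, had the largest increase. Its signal was 6.11 and 6.89 in junctional epithelium, against 9.20 and 9.36 in peri-implant epithelium. It lay around the background level in junctional epithelium, with 1 array below it, and clearly above it in peri-implant epithelium. The means were 6.50 ± 0.56 and 9.28 ± 0.11, at least a 6.17-fold difference with the low array raised to background (log2 difference 2.78, SE 0.30, adjusted p = 0.000863 with the intensity trend, 0.119 in the default fit). The call was kept in 12 of 12 alternatives, with differences from 2.39 to 3.18 and a largest adjusted p of 0.0485.

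RefSeq promoter windows (GRCr8) were given for 17 of the 25 genes, and those of 3 of the 4 genes with the largest changes are shown, the 250 bases before the start site, because these genes moved most and in opposite directions. Krt17 had no entry. Capitals mark matches, on either strand, to TATAAA (the TATA box), TGANTCA (AP-1), GCCNNNGGC (AP-2), TTGCNNAA (C/EBP) or TTCNNNGAA (STAT). All 3 windows are on the minus strand and written 5′ to 3′, at chr10:84839161-84839410 for Krt10, chr10:84733487-84733736 for Krt24 and chr7:134960728-134960977 for Krt78.
Krt10: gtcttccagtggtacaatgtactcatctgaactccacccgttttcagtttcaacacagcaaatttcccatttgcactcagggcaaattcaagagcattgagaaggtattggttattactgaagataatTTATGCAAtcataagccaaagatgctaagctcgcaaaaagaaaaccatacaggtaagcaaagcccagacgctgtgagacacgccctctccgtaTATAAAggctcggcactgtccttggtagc
Krt24: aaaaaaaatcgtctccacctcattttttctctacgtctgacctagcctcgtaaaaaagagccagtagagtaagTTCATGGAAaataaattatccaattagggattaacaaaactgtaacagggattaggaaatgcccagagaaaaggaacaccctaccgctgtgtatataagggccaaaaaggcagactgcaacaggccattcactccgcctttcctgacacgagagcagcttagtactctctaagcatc
Krt78: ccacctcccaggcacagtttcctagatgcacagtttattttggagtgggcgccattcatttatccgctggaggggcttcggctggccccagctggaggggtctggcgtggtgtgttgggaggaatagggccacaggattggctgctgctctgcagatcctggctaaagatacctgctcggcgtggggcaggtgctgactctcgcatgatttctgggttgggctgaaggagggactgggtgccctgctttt

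The Krt10 window held TATAAA beginning 29 bases before the start site and a C/EBP match beginning 122 bases before it. The Krt24 window held 1 STAT match, beginning 177 bases before the start site, and the Krt78 window held none of the 5 motifs. Over the 17 keratin genes, 8 had a TATAAA match in a window, against 12.9% of the 33469 windows of all genes. An AP-1 match stood in 1 keratin gene, Krt4 (6.34% of all windows), an AP-2 match in 2 (12.6%), a C/EBP match in 3 (9.22%) and a STAT match in 2 (7.67%). In Krt4 the AP-2 and C/EBP matches overlapped. These matches are descriptions of the letters and not evidence of binding.

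**Figure D2:**
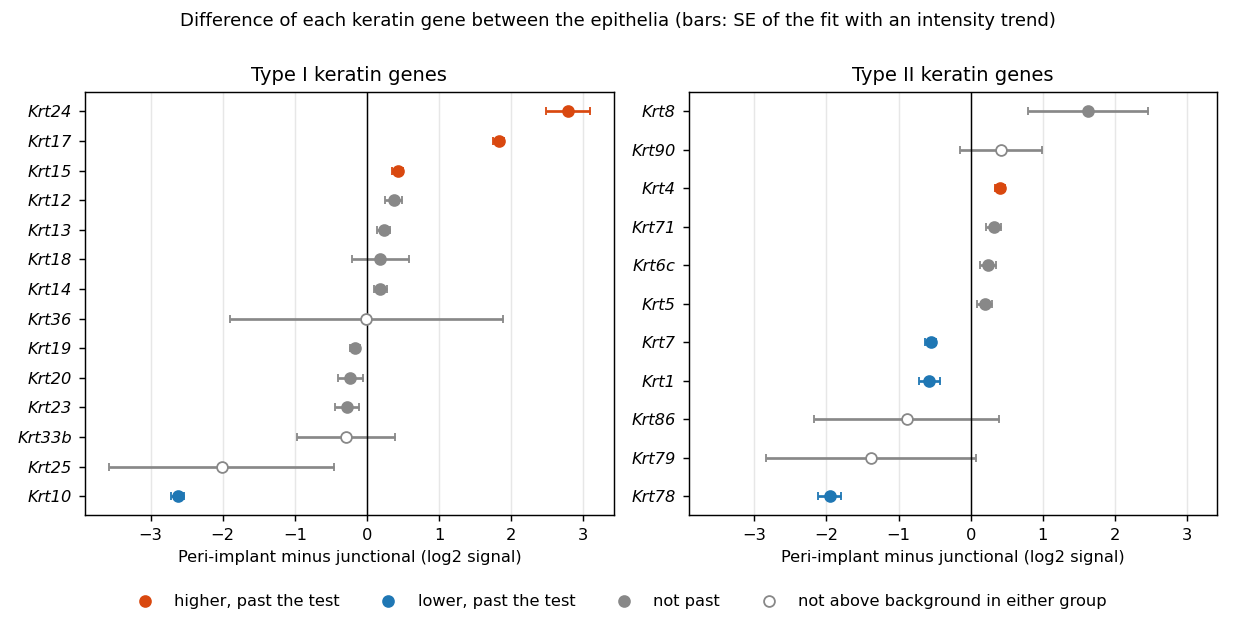
Peri-implant minus junctional log2 signal (horizontal axis) of all 25 keratin genes, with bars for the SE of limma's fit with an intensity trend. Colour marks the 4 genes that rose and the 4 that fell, and open symbols the 6 genes not above background in either group, whose bars are wide; Krt24 and Krt17 stand farthest to the right among called genes, and Krt10 and Krt78 farthest to the left.

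The basal keratins showed small differences. Krt15, a type I keratin of basal and stem-like cells, was 13.22 and 13.24 in junctional epithelium, against 13.71 and 13.60 in peri-implant epithelium, and rose by 0.42 (SE 0.07, 1.34-fold, adjusted p = 0.00812 with the intensity trend, 0.232 in the default fit). Both peri-implant arrays lay above both junctional arrays. The call was lost without junctional replicate 1 (adjusted p = 0.132), junctional replicate 2 (0.112) or peri-implant replicate 1 (0.0572), where the differences were 0.41, 0.44 and 0.37, and with arrays scaled on the hybridization controls (0.325, difference 0.29), within a range of 0.00174 to 0.325 over 12 alternatives.

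Krt5 and Krt14, the keratin pair of basal cells, moved by nearly equal amounts that did not pass. Krt5 was 15.84 and 15.87 in junctional epithelium, against 16.23 and 15.87 in peri-implant epithelium, a difference of 0.19 (SE 0.10, adjusted p = 0.254 with an intensity trend). Krt14 was 15.73 and 15.82 against 16.10 and 15.82, a difference of 0.18 (SE 0.09, adjusted p = 0.233), which was -0.03 after quantile normalization. For both genes peri-implant array 1 was high and array 2 lay at the junctional level.

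The same array stood out for each keratin with a mean signal above 15. Peri-implant array 1 exceeded array 2 by 0.35 for Krt5, 0.29 for Krt14, 0.27 for Krt13 and 0.40 for Krt6c, and by 0.32 for the mean of the hybridization controls. Without peri-implant replicate 2 these 4 genes passed (adjusted p = 0.0226 for Krt5, 0.0495 for Krt14, 0.0425 for Krt13 and 0.0201 for Krt6c), against largest values of 0.854, 0.885, 0.741 and 0.756 over 12 alternatives.

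Among the keratins of lining mucosa, the type II gene Krt4 rose slightly. It was 13.35 and 13.40 in junctional epithelium, against 13.75 and 13.81 in peri-implant epithelium, a difference of 0.41 (SE 0.07, 1.33-fold, adjusted p = 0.00801 with the intensity trend, 0.234 in the default fit). The arrays of each group lay close together. The call was lost without junctional replicate 1 (adjusted p = 0.138), junctional replicate 2 (0.103) or peri-implant replicate 2 (0.0599), where the differences were 0.38, 0.43 and 0.38, and with arrays scaled on the hybridization controls (0.352, difference 0.27), within a range of 0.00196 to 0.352. Its type I partner Krt13 was 15.34 and 15.43 against 15.76 and 15.49, a difference of 0.23 that did not pass (SE 0.09, adjusted p = 0.128).

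Of the simple-type keratins only Krt7 passed the test. It is a type II keratin of glandular and transitional epithelia, and its signal was 13.62 and 13.66 in junctional epithelium, against 13.15 and 13.02 in peri-implant epithelium. It fell by 0.56 on the log2 scale (SE 0.08, 1.47-fold, adjusted p = 0.00280 with the intensity trend, 0.187 in the default fit). The groups did not overlap. The call was lost without junctional replicate 1 (adjusted p = 0.0836) or junctional replicate 2 (0.0857), where the differences were -0.57 and -0.54, within a range of 0.000185 to 0.0857.

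Krt19, a type I keratin without a tail domain that marks junctional epithelium, was well above background in both tissues. It was 13.68 and 13.62 in junctional epithelium, against 13.49 and 13.47 in peri-implant epithelium, a difference of -0.17 (SE 0.07, adjusted p = 0.157 with the intensity trend, 0.500 in the default fit). The groups did not overlap, but the difference did not pass. Krt20, a type I keratin of intestinal epithelium and Merkel cells, was 9.13 and 8.94 against 8.72 and 8.88, a difference of -0.23 (SE 0.18, adjusted p = 0.442).

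Krt8 and Krt18, the first keratins of embryonic and simple epithelia, were close to background. Krt8 was 4.09 and 7.11 in junctional epithelium, against 7.13 and 7.32 in peri-implant epithelium, so its difference of 1.63 (SE 0.83, adjusted p = 0.240) came from 1 junctional array below background. Without that array the difference was 0.12. Krt18 was 6.43 and 6.62 against 6.72 and 6.71, a difference of 0.18 (SE 0.40, adjusted p = 0.813). Merkel cells carry Krt8, Krt18 and Krt20. Among the other markers listed for these cells, Piezo2, Chga and Syp lay below background on all arrays, while Isl1 and Sox2 rose. Of the 8 measured members 2 rose, beside 7.39% of all genes called higher. The summed signal of the list was 10.40 and 10.38 in junctional epithelium, against 11.07 and 10.98 in peri-implant epithelium. This sum includes Isl1, Sox2, Krt8, Krt18 and Krt20, so it is not separate from their values. The part of Merkel cells was not tested.

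Krt23, a type I keratin of simple epithelia, was 10.34 and 9.88 in junctional epithelium, against 9.82 and 9.85 in peri-implant epithelium, a difference of -0.28 that did not pass (SE 0.16, adjusted p = 0.308). Only junctional array 1 was high. Krt12, the type I keratin of corneal epithelium, was 10.37 and 10.27 against 10.61 and 10.77, a difference of 0.37 (SE 0.11, adjusted p = 0.0679 with the intensity trend, 0.287 in the default fit), which passed when genes not above background were left out (adjusted p = 0.0399, within 0.0399 to 0.631 over 12 alternatives).

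Krt71, a type II keratin of the inner root sheath of hair, was clearly above background in an epithelium without hair. Its signal was 10.75 and 10.93 in junctional epithelium, against 11.13 and 11.18 in peri-implant epithelium, a difference of 0.32 (SE 0.10, adjusted p = 0.0786 with the intensity trend, 0.328 in the default fit) that passed when genes not above background were left out (adjusted p = 0.0470, within 0.0470 to 0.715). Its type I partner Krt25 lay below background on all arrays, at 5.48 and 5.23 against 5.86 and 0.82. Of the 9 markers listed for hair follicle, 4 were measured: Krt71 and Krt25, Lhx2, which was below background on all arrays, and Tchh, which was above it on all arrays and rose from 9.47 ± 0.01 to 12.00 ± 0.17. The part of hair follicle cells in the Krt71 signal was not tested.

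The other keratins not above background were the hair keratins Krt33b, Krt36 and Krt86, the sebaceous-duct keratin Krt79, and Krt90. With Krt25 these are 6 genes, of which 5 lay below background on all 4 arrays and Krt90 exceeded it on 1 array of each group, at 6.45 and 6.96. Their differences, from -2.02 to 0.42, are between signals that cannot be told from background, and 0 of 6 passed either fit. No fold is given for them. Also, 2 probe sets annotated to Krt31, Krt33a, Krt33b and Krt34 together were left out of the family by the rule, and both lay below background on all arrays.

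Calls were made in both types. Of 14 type I genes, 3 rose (Krt15, Krt17 and Krt24), 1 fell (Krt10) and 10 did not pass. Of 11 type II genes, 1 rose (Krt4), 3 fell (Krt1, Krt7 and Krt78) and 7 did not pass. Over all genes, 7.39% were called higher and 5.34% lower. The median difference was 0.09 for type I and 0.19 for type II genes, against 0.05 for all genes, and the ranges overlapped widely, from -2.63 to 2.78 for type I and from -1.96 to 1.63 for type II. Both medians depend on the scaling: after quantile normalization they were -0.10 and 0.02, and with scaling on the hybridization controls -0.05 and 0.06, where the median of all genes was -0.09. The type II median was the higher one under these scalings, but not when junctional replicate 2 (0.21 against 0.28 for type I), peri-implant replicate 1 (-0.089 against -0.054) or peri-implant replicate 2 (0.29 against 0.31) was left out. The difference between the types and the split of the calls by type were not tested.

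In known pairs, the question was whether the type I and type II partners changed alike. The type II minus type I signal was computed within each array, so that the scaling of an array cancels, and its change between the tissues was compared in 10 pairs, of which Krt6c with Krt17 was added after the symbols on the array were seen. With 2 arrays against 2, the exact permutation test (two-sided) cannot give a p below 0.333, so no pair can pass. In 6 of 10 pairs this value did not overlap between the groups, beside 56.3% of all genes taken singly. The share over other gene pairs was not computed, so the count is not read as a result about keratin pairs. Among the 6, the pairs of Krt8 with Krt19 and with Krt20 share Krt8 and its junctional array below background.

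The widest divergence above background was in the keratinizing pair. Krt10 differed by -2.63 and Krt1 by -0.57, so Krt1 minus Krt10 went from -1.83 and -2.11 in junctional to -0.0020 and 0.17 in peri-implant samples, a change of 2.05 (exact permutation p = 0.333, adjusted p = 0.556 over the 10 pairs). The change ran from 1.91 to 2.20 over 7 alternatives. The wound pair diverged the other way: Krt17 differed by 1.83 and Krt6c, by its brightest probe set, by 0.25. Krt6c minus Krt17 went from 2.73 and 2.69 to 1.27 and 0.99, a change of -1.58 (exact permutation p = 0.333, adjusted p = 0.556). The change ran from -1.74 to -1.36 over 7 alternatives, with -1.36 for the mean of the 3 Krt6c probe sets. The other 2 Krt6c probe sets, both dimmer, differed by 0.37 and 0.79, and the pair was not computed with either alone. The size of the divergence in the wound pair therefore depends on the probe set.

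The basal pair did not shift beyond its spread. Krt5 minus Krt14 was 0.11 and 0.05 in junctional epithelium, against 0.12 and 0.06 in peri-implant epithelium, a change of 0.01 (exact permutation p = 0.667) with overlapping arrays, and Krt4 minus Krt13 changed by 0.18 with overlap as well (exact permutation p = 0.667). Krt5 minus Krt15 changed by -0.23 and Krt7 minus Krt19 by -0.39, each without overlap (exact permutation p = 0.333). The pairs of Krt8 with Krt18, Krt19 and Krt20 and of Krt71 with Krt25 had changes from 1.44 to 2.33, each set by arrays below background.

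**Figure D3:**
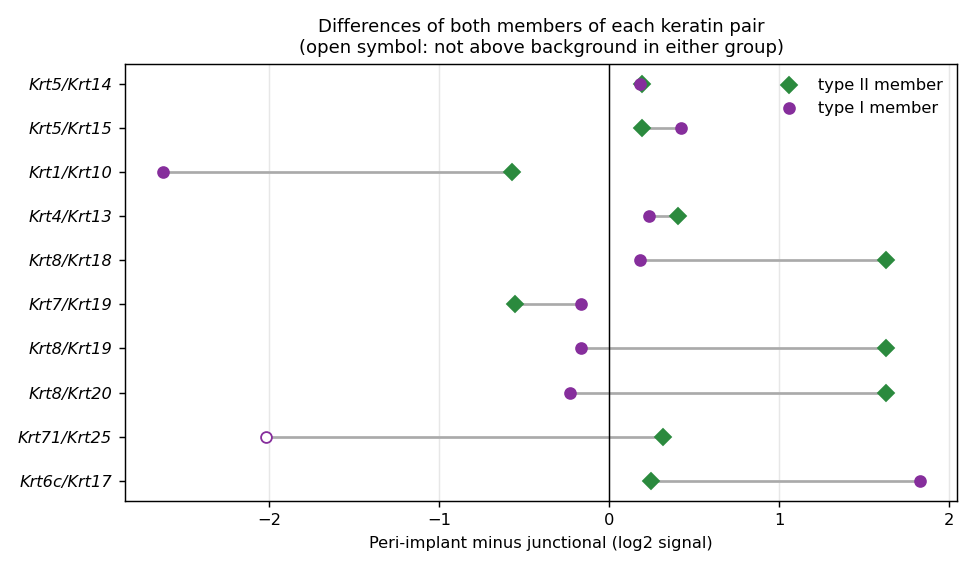
Peri-implant minus junctional log2 signal (horizontal axis) of the type II member (diamond) and the type I member (circle) of 10 keratin pairs, joined by a line. The symbols of Krt5/Krt14 lie on each other. Those of Krt1/Krt10 are 2.05 apart and those of Krt6c/Krt17, with the brightest Krt6c probe set, are 1.58 apart. The open circle is Krt25, not above background in either group.

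The genes that changed are given here by their place in the keratin clusters, where many genes were not measured. In the order of GRCr8, 27 keratin genes lie on chromosome 10, of which 13 were measured, and 27 on chromosome 7, of which 12 were measured. On chromosome 10, Krt24 is at place 2, Krt10 at place 7 and Krt17 at place 26, so the genes that rose most lie near opposite ends. Krt12, the neighbour of Krt10 at place 8, differed by 0.37 against -2.63 for Krt10. On chromosome 7, Krt4 at place 23 rose and Krt78 at place 25 fell, with Krt79, not above background, between them. Krt1 at place 20 fell, and Krt77 and Krt76, between it and Krt4, were not measured. Krt1 and Krt4, both called, are therefore neighbours among the measured genes. With so many genes unmeasured, whether changed genes tend to be neighbours cannot be stated.

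**Figure D4:**
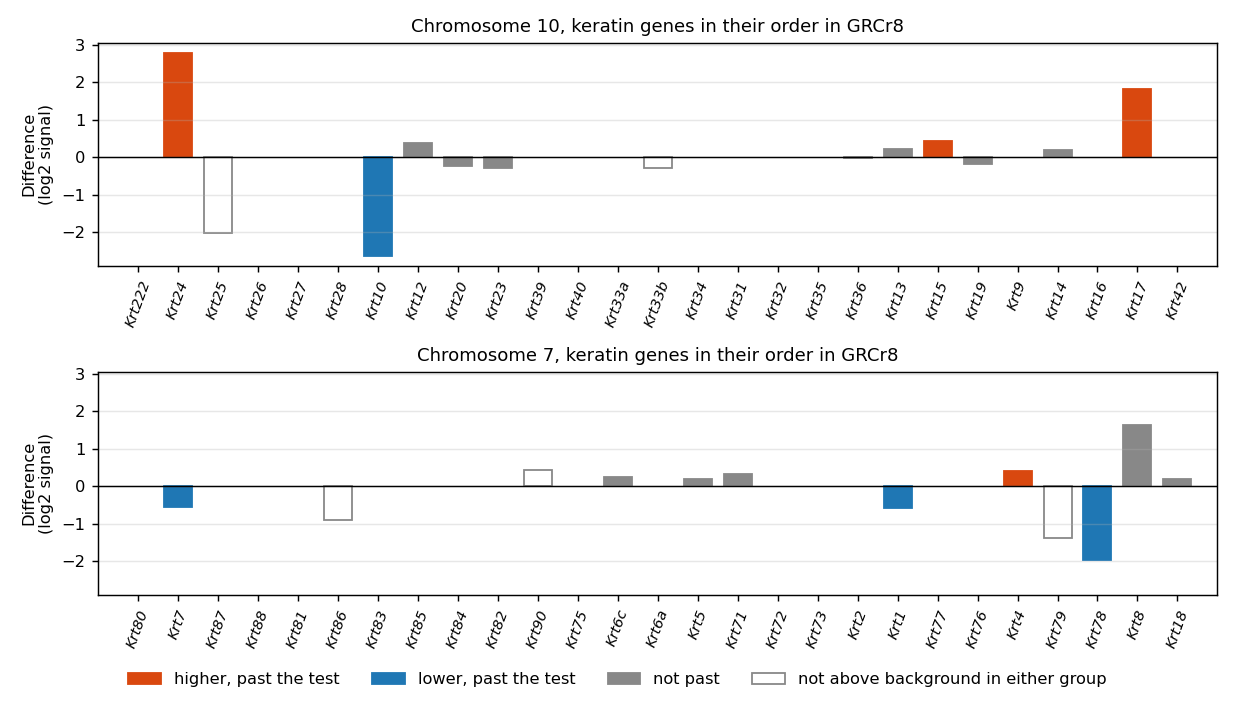
Peri-implant minus junctional log2 signal (vertical axis) of the keratin genes in their order along chromosomes 10 and 7 of GRCr8, with 27 genes each and distances not to scale. Places without a bar are genes with no probe set of their own; bars of opposite direction stand near each other, such as Krt10 and Krt12 or Krt4 and Krt78.

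Proteins that bind, anchor or cross-link keratin filaments were described from 6 lists with 59 measured genes. Of these, 6 rose and 6 fell with the intensity trend and 0 passed the default fit, where 11 had an unadjusted p below 0.05. Beside these 12 of 59 calls, 12.7% of all genes were called with the intensity trend. All 12 were among the 45 partner genes above background in a group, where the share over all genes was 18.2%. Whether the calls exceed these shares was not tested, and they are not read as a result about the lists. The median difference was 0.08, against 0.05 for all genes. The lists were chosen with earlier results of these data known.

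Of 12 listed keratin-binding proteins of the granular and cornified layers, 6 were measured, all above background in a group. Of these, 1 rose, 4 fell and 1 did not pass, with a median difference of -1.26. Beside these counts, 5.34% of all genes were called lower, and 18.2% of all genes above background were called in either direction. Kprp, Loricrin and Krtdap were already counted among the keratinizing markers above, so their values are not separate from that count. Kprp, which encodes the keratinocyte proline-rich protein, went from 10.49 ± 0.07 to 6.12 ± 0.38 and so fell at least 16.8-fold, and Loricrin, the main cornified envelope protein, fell by 2.11 on the log2 scale. Cnfn, which encodes cornifelin, fell by 0.41 and Krtdap, a secreted protein of differentiating keratinocytes, by 0.37. The gene that rose was Tchh, which encodes trichohyalin, a protein that organizes keratin filaments in the inner root sheath and in tongue papillae, from 9.47 ± 0.01 to 12.00 ± 0.17 (5.77-fold, adjusted p = 4.74e-06 with the intensity trend, 0.0898 in the default fit). Tchh is 1 of 4 measured genes of the hair follicle list and the only one that rose. The summed signal of that list was 11.28 and 11.39 in junctional samples, against 12.72 and 12.57 on the peri-implant arrays. This sum includes Tchh, and Lhx2 and Krt25 lay below background, so it is not separate from the Tchh values. The part of such cells in the Tchh result was not tested.

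Anchors of keratin at the cell membrane were read by 15 measured plakin and desmosome genes, all above background in a group. Of these, 1 rose, 1 fell and 13 did not pass, beside 18.2% called of all genes above background and 12.7% of all genes. Signals did not overlap between the groups for 12 of the 15, beside 65.3% of all genes above background. These counts are not read as a result about the list. The median difference was 0.04 against 0.05 for all genes. Pkp1, a desmosomal plaque protein, rose by 0.32, and Dsc1, a desmocollin of upper epidermal layers, fell by 0.62. Pkp2 and Macf1 differed by -0.78 and -0.33 and did not pass (adjusted p = 0.0952 and 0.0725 with an intensity trend).

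Of 4 transglutaminases, which cross-link keratin and envelope proteins, 2 rose, beside 7.39% of all genes called higher. Tgm1, the membrane-bound enzyme of keratinocytes, rose from 12.52 ± 0.09 to 13.15 ± 0.10 (adjusted p = 0.00241) and the widely expressed Tgm2 from 12.00 ± 0.10 to 12.67 ± 0.04 (adjusted p = 0.00180). Tgm3 and Tgm5 differed by 0.03 and 0.06 and did not pass.

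Of 16 other intermediate filament genes 7 were above background in a group. Among the 16, 1 rose and 1 fell, beside 12.7% called of all genes. Vim, the vimentin of mesenchymal cells and leukocytes, rose by 0.62 (adjusted p = 0.00595), in samples where the leukocyte list was higher. Of 7 genes in the fibroblast list, 2 rose and 1 fell, beside 7.39% of all genes called higher and 5.34% called lower. The summed signal of the list was 15.46 in both junctional and 15.68 in both peri-implant samples. The part of leukocytes or fibroblasts in the Vim difference was not tested. Synm, a synemin of muscle and other cells, went from 8.01 ± 0.15 to 5.92 ± 0.42, a fall of at least 3.02-fold. Bfsp1 and Lmnb2 differed by 1.12 and 0.53 and did not pass.

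Of 14 measured transcription factors known to act on keratin genes, 1 rose and 13 did not pass, beside 12.7% called of all genes. Cebpb, a factor of differentiating keratinocytes and of inflammation, rose from 9.98 ± 0.00045 to 10.78 ± 0.03 (1.75-fold, adjusted p = 0.00241 with the intensity trend, 0.130 in the default fit). Gata3, Tfap2a and Msx2 differed by 0.89, 0.40 and 0.30 and did not pass. Of the hair keratin-associated proteins, 4 were measured and all 4 lay below background on every array.

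**Figure D5:**
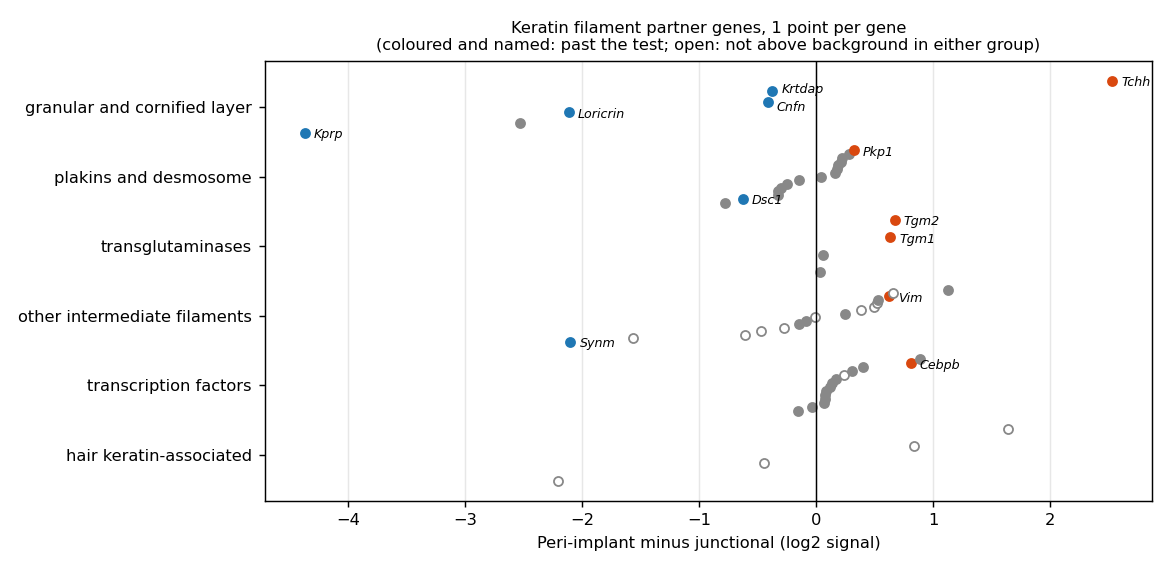
Peri-implant minus junctional log2 signal (horizontal axis) of 59 keratin partner genes in 6 lists, 1 point per gene. Coloured, named points passed limma's fit with an intensity trend and open points were not above background in either group; Kprp and Loricrin lie far to the left and Tchh to the right, while the plakin and desmosome genes cluster around 0.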

How the data were processed

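Expression was measured on 4 Affymetrix arrays, 2 per group, grouped by title. The table that the authors deposited holds log2 signal of 31042 probe sets and 57 controls, made by software not named in these sources. Each array has a linear mean of about 500.2 after trimming 2% at each end and a floor at log2 0. They were used without further normalization. Arrays give no read depth, and their number limits the precision.

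Genes were named from the platform annotation, using the 20826 probe sets with 1 symbol, and a gene with several was read by the one brightest on average. Symbols, gene order and promoter windows came from RefSeq (GRCr8), and all 25 keratin identifiers matched. Groups were compared by lmFit and eBayes of limma 3.58.1 in R 4.3.3, with default settings and with an intensity trend and robust prior. Tests were two-sided, with 2 residual degrees of freedom, Benjamini-Hochberg adjustment over all 14217 genes and a threshold of 0.05. Both fits were also run on simulated data whose spread depended on the level only, which is what the intensity trend assumes. That simulation therefore cannot decide between the fits. Where an array of the lower group was at or below background, it was raised to 6.42 and the fold is "at least". Every keratin gene above background in a group was named, and up to 4 members of each partner list, those past the test first (Krtdap was added after its value was seen). Members, tests and lists were chosen with earlier results of these data known.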

Additional observations from a re-analysis of the deposited data

How the results depend on the processing

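The calls of Krt10, Krt17, Krt24 and Krt78 with an intensity trend were kept under all 12 alternatives tried, and those of Krt1, Krt4, Krt7 and Krt15 were lost in some fits with 1 array left out, where 1 group holds a single array and its spread is assumed to be like the other group's. The count of keratin genes that rose (4) was 2 with scaling on the hybridization controls, an alternative chosen after seeing the data, and 2 to 7 with 1 array left out; the count that fell (4) was 2 to 3 with 1 array left out. The default fit passed 2 keratin genes with low signals raised to background and 4 among genes above background only. Of these 4, Krt24 met that filter only through the peri-implant arrays. With the replicate number as a block (replicate block), 6 keratin genes rose and 4 fell, 0 passed the default fit and 15 partner genes were called, against 12 without it. The labels give the numbers no shared origin, and deviations of samples with the same number correlated at 0.018 over all genes. Partner genes numbered 0 with the default fit and 3 to 10 with 1 array left out. The type I median was -0.051 with scaling on the hybridization controls, -0.10 after quantile normalization and -0.054 to 0.31 with 1 array left out, and the type II median -0.089 to 0.29. Krt14 changed sign after quantile normalization (-0.034). The cause of these changes was not tested. Signals below 6.42 limit what Krt8, Krt24 and the 6 dim genes can show.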
